A study of Mus musculus with 8 samples.

Results

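The genes described here are 5 matrix metalloproteinases (MMPs), 3 tissue inhibitors of metalloproteinases (TIMPs) and the urokinase pair Plau and Plaur. They were taken by name from a count table of tumor-associated macrophages (TAMs), and all 10 were found among its 23413 genes. The macrophages came from C57BL/6 male mice of 8 to 10 weeks bearing subcutaneous B16F10 tumors, which grow from a transplanted mouse melanoma cell line. The groups were 2 mice dosed with DMSO as vehicle, 4 mice dosed with thiostrepton, a thiopeptide antibiotic, by intraperitoneal (IP) injection, and 2 mice dosed with thiostrepton by injection beside the tumor (IS). Dosing took place on days 6 and 12 of tumor growth, TAMs were sorted as CD45+F4/80+CD11b+Gr-1- on day 18, and each mouse gave 1 library. The dose beside the tumor was 20 mg/kg, the text names neither the IP dose of these mice nor the route of the DMSO mice, and the label of the IS mice gives the route but not the agent, which is taken from the series description. The IP doses in the study's tumor growth experiments were above 20 mg/kg. Route and dose therefore cannot be told apart.

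Matrix metalloproteinases are zinc endopeptidases that are made as inactive proenzymes and cleave collagens, elastin, gelatins and many non-matrix proteins once activated. TIMPs bind the active site and block it. Urokinase (Plau), held at the cell surface by its receptor (Plaur), cleaves plasminogen to plasmin, which degrades fibrin and activates several pro-MMPs. Macrophages in tumors are a known source of these enzymes, and Mmp12 is named macrophage elastase after them.

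In the IS mice Plaur was 2.36-fold higher and Plau 2.21-fold lower than in the DMSO mice, while none of the 5 MMPs or 3 TIMPs passed the same test. The fold changes of Mmp2 (3.10-fold higher), Timp3 (2.51-fold higher) and Timp1 (2.48-fold lower) were larger, with larger SEs. With 2 mice per group, missing the test does not set the MMPs and TIMPs apart from Plau and Plaur. In the IP mice none of the 10 genes passed the test, although Plau was lower than in both DMSO mice in 4 of 4 mice, as were 6.83% of all genes tested. A gene was called at an unadjusted P under 0.05 with at least a 2-fold change, the criterion of the study, in edgeR's quasi-likelihood test. In IP against DMSO 0 of 10 genes were called, where 2.0% of 12174 tested genes were. In IS against DMSO 2 of 10 were called, against 5.06% of 11680 genes: 1 higher (2.29% of genes) and 1 lower (2.77%). In IS against IP 1 of 10, Mmp13, was called higher, against 2.41% called higher and 7.05% called in all of 12206 genes. After Benjamini-Hochberg adjustment over all genes, 0 genes passed in each of the 3 comparisons, while 418, 632 and 1049 had an unadjusted P under 0.05, and DESeq2 gave 26, 107 and 234 adjusted calls, 0 of them among the 10 genes. With so few mice an exact permutation test of 1 gene is limited. Two-sided, as double the smaller tail, it cannot go below 0.133 (4 against 2) or 0.333 (2 against 2).

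The groups did not overlap for 1 of the 10 genes in IP against DMSO (14.2% of all genes), 5 in IS against DMSO (34.3%) and 3 in IS against IP (18.5%). The median log2 fold change of the 10 genes was 0.17, 0.52 and 0.50 in the 3 comparisons, beside 0.02 over all genes tested in each. Both routes are set against the same DMSO mice, so their values are not independent. In bulk samples, fewer cells of a type and less RNA per cell cannot be told apart.

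Each library held 14127506 to 17577466 gene counts. Levels are given as CPM, counts scaled by library size after TMM normalization, and a floor of 3 counts, which covers counting error only, lies at 0.169 to 0.219 CPM. All 8 macrophage markers were present in every mouse, with summed levels of 5620 to 7517 CPM. Single markers varied more than the sum. Adgre1 measured 915 and 594 CPM in the DMSO mice and 361 and 1020 CPM in IS mice 1 and 2. Csf1r measured 767 and 733 CPM in the DMSO mice and 353 and 1128 CPM in IS mice 1 and 2. Cd68 was steadier, at 2377 and 2695 CPM in the DMSO mice and 2879 and 3319 CPM in the IS mice, given from low to high. The 10 fibroblast markers summed to 0.135 to 2.22 CPM, with Pdgfra at 0 in all 8 mice. Neutrophil markers (9 in the table) summed to 125 and 135 CPM in the DMSO mice, 84.5 to 161 CPM in the IP mice, and 231 and 387 CPM in IS mice 1 and 2. The 2 IS mice differed in the genes that carried this sum: Cxcr2 measured 171 CPM in IS mouse 1 and 65.3 CPM in IS mouse 2, against 63.7 and 96.7 CPM in the DMSO mice, and S100a8 measured 6.46 and 64.8 CPM, against 2.31 and 6.15 CPM. Melanoma markers (8 genes) summed to 598 and 668 CPM in the DMSO mice, 462 to 1675 CPM in the IP mice, and 2994 and 701 CPM in IS mice 1 and 2. T and NK cell markers summed to 9.31 and 20.9 CPM in the DMSO mice, 2.81 to 18.9 CPM in the IP mice, and 38.8 and 37.4 CPM in the IS mice. Endothelial markers stayed between 3.62 and 11.3 CPM. IP mouse 1 and the 2 IS mice stood apart from the rest in both directions. They held the highest value of the 8 mice for 20.6%, 21.2% and 21.8% of the 11355 genes averaging 1 CPM or more. For 20.3%, 22.5% and 21.0% of these genes they held the lowest.

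**Figure D1:**
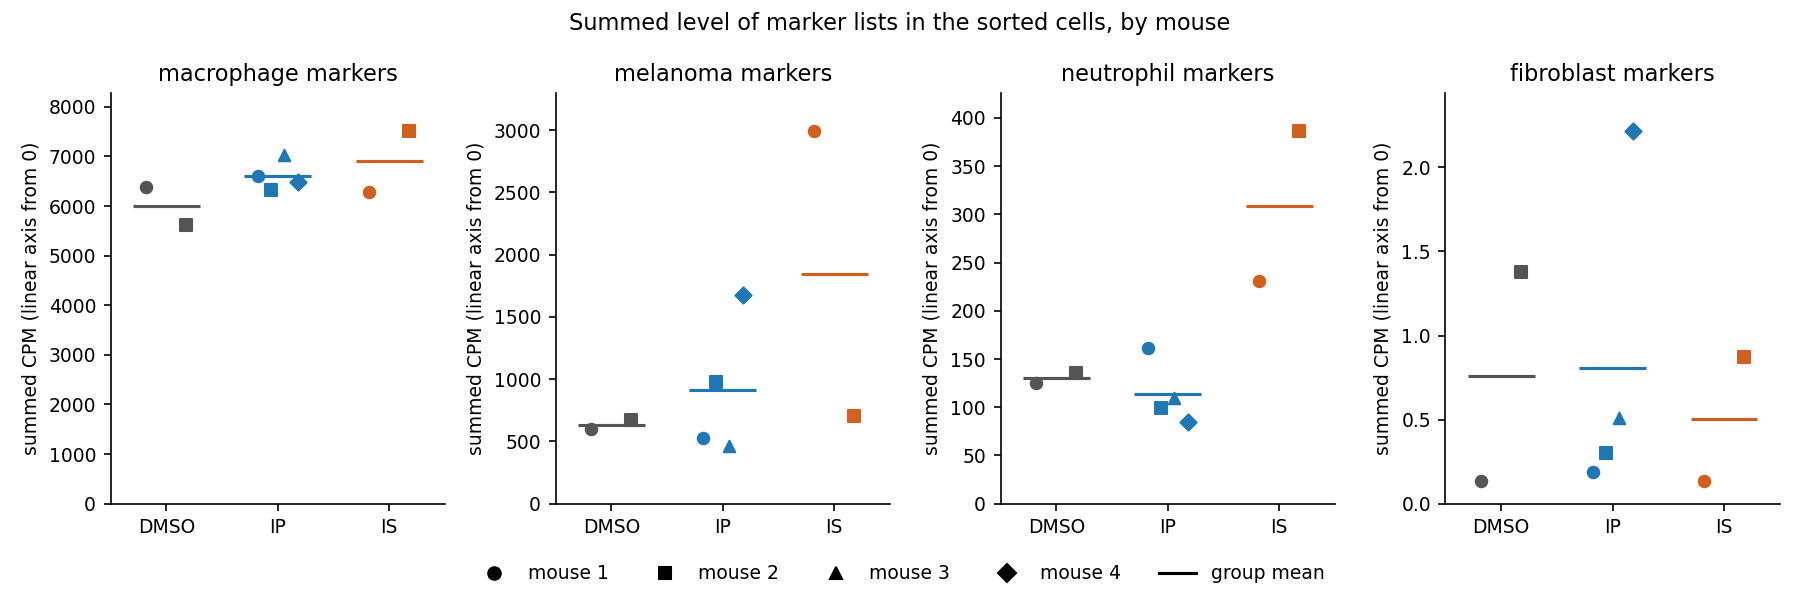
Summed CPM (linear axes from 0) of the macrophage, melanoma, neutrophil and fibroblast markers, 1 panel per list, with 1 point per mouse, its shape giving the mouse number, and the group mean as a line (DMSO n = 2, IP n = 4, IS n = 2). Macrophage markers lay between 5620 and 7517 CPM, fibroblast markers did not pass 2.22 CPM, and neutrophil markers were higher in both IS mice (231 and 387 CPM) than in the other 6.

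Plaur, Mmp13 and Mmp12 each carry a match to the AP-1 motif just before a transcription start. Each was higher in both IS mice than in both DMSO mice, as were 17.1% of all genes tested. Only Plaur of the 3 was called in that comparison. Mmp2 was also higher in both IS mice, and no promoter was listed for it. Whether the motif goes with the direction was not tested. The 250 bases before the start were read from RefSeq (GRCm38.p6, + strand) and are printed 5′ to 3′, with the AP-1 match in capitals. They are shown so that the position of the match in the 3 genes can be compared.
Plaur, chr7:24462233-24462482: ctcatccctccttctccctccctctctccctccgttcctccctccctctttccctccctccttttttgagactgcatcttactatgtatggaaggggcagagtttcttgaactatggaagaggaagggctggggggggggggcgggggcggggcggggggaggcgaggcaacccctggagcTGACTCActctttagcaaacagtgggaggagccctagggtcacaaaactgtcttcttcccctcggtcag
Mmp13, chr9:7272264-7272513: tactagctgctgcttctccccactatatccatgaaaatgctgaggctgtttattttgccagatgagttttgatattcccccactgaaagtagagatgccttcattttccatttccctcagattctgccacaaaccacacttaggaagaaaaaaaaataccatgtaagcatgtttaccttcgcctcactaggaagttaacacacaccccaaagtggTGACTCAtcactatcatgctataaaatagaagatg
Mmp12, chr9:7347124-7347373: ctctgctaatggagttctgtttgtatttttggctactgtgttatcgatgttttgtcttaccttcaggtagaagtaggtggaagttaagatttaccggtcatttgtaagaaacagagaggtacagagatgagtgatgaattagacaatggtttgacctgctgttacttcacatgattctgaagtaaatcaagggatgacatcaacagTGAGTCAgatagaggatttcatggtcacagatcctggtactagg
The match was TGACTCA in Plaur and Mmp13, beginning 69 and 35 bases before the start, and TGAGTCA in Mmp12, beginning 44 bases before the downstream of its 2 listed starts. Promoters were listed for 7 of the 10 genes, and those of Mmp2, Mmp19 and Plau were not used here. With both starts of Mmp12 these genes have 8 windows, and the letters TGANTCA were found on either strand in 3 of them, against 6.75% of 32851 windows of the same length. The window at the upstream start of Mmp12 holds no such match. TATAAA was found in 1 of the 8 windows (Mmp13) and in 12.4% of all windows, and AGGAAG, the core of the PEA3 motif, in 6 of 8 (all but Timp2 and the printed window of Mmp12) and in 29.5% of all windows. None of the printed AP-1 matches shares bases with a match to the other motifs. A match describes letters in a window and says nothing of binding.

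Per kilobase of transcript, Mmp12 was the most abundant of the 10 transcripts and Timp2 the most abundant inhibitor. The median over 8 mice was 788 CPM per kb for Mmp12, 277 for Timp2, 247 for Plaur, 72.7 for Mmp14, 46.8 for Mmp13 and 18.8 for Plau. Mmp19 followed at 7.51 CPM per kb, Timp1 at 4.63, Mmp2 at 0.768 and Timp3 at 0.161. Mmp12 lay above Timp2, Plaur above Mmp14, and Timp1 above Mmp2 in 8 of 8 mice with ranges that did not overlap. Timp2 and Plaur did not differ beyond their spread (Timp2 higher in 4 of 8 mice), nor did Mmp19 and Timp1 (5 of 8). Mmp14 was above Mmp13, and Plau above Mmp19, in 6 of 8 mice, with overlapping ranges, and Mmp13 was above Plau and Mmp2 above Timp3 in 8 of 8 mice although their ranges overlapped. With the union of exons as length, Mmp13 and Mmp14 changed places and the other 8 genes kept theirs. Mmp12 made up 76.9% to 91.5% of the summed CPM per kb of the 5 MMPs in each mouse, and Timp2 made up 95.8% to 98.7% of the 3 TIMPs.

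**Figure D2:**
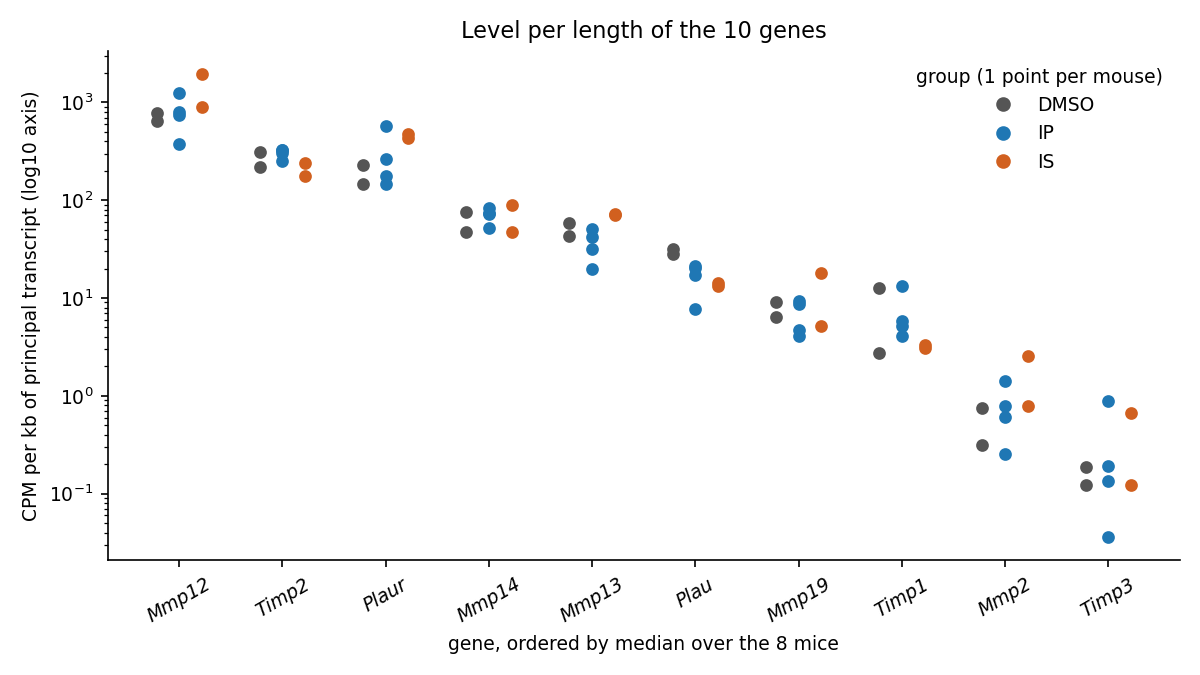
CPM per kilobase of principal transcript (log10 axis) of the 10 genes in each of the 8 mice, 1 point per mouse, colored by group and ordered by the median. The order runs from Mmp12 (median 788 CPM per kb) to Timp3 (0.161), and the ranges of Timp2 and Plaur overlap.

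Mmp12, macrophage elastase, lies on GRCm38 at chr9:7344381-7369499, and was present at 2301 and 2801 CPM in DMSO mice 1 and 2. It measured 1359.9, 2883, 2705 and 4519 CPM in IP mice 1 to 4, and 3261 and 7050.0 CPM in IS mice 1 and 2. Both IS mice were above both DMSO mice, while the IP mice spanned the DMSO mice, with mouse 1 the lowest of all 8. The group means were 2551 ± 354 (SD, n = 2), 2867 ± 1295 (SD, n = 4) and 5156 ± 2679 CPM (SD, n = 2). By edgeR's quasi-likelihood test the difference from DMSO did not pass for IP (log2 fold change 0.17, SE 0.42, unadjusted P = 0.702, adjusted p = 0.987) or for IS (log2 fold change 0.99, SE 0.45, unadjusted P = 0.0717, adjusted p = 0.957). The IS value rested on mouse 2: without it the log2 fold change was 0.33, and without mouse 1 it was 1.45.

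Mmp13, collagenase-3, lies 61049 bases before Mmp12 at chr9:7272514-7283331. It measured 115 and 158 CPM in the DMSO mice, 52.5, 84.5, 135 and 112 CPM in the IP mice and 195 and 191 CPM in the IS mice. Both IS mice were above all other mice, and 3 of 4 IP mice were below both DMSO mice. The difference from DMSO did not pass the test for IP (log2 fold change -0.51, SE 0.36, unadjusted P = 0.198, adjusted p = 0.980) or for IS (log2 fold change 0.48, SE 0.32, unadjusted P = 0.188, adjusted p = 0.9999).

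Mmp14 (chr14:54431612-54445364) encodes the membrane-type protease MT1-MMP, which activates pro-MMP2 at the cell surface. It measured 195 and 122 CPM in the DMSO mice, 217, 135, 186 and 192 CPM in the IP mice and 124 and 232 CPM in the IS mice. The groups overlapped in every pairing, and the highest value was only 1.89 times the lowest. Neither route passed the test against DMSO (IP log2 fold change 0.20, SE 0.28, unadjusted P = 0.500, adjusted p = 0.980, and IS log2 fold change 0.14, SE 0.44, unadjusted P = 0.761, adjusted p = 0.9999), and the direction by IS turned to -0.01 with library size alone as the scale.

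Mmp2 (gelatinase A, chr8:92827291-92853420), its substrate, was scarce, with 13 to 109 reads per mouse. It measured 2.31 and 0.977 CPM in the DMSO mice, 1.85, 0.791, 2.43 and 4.38 CPM in the IP mice and 2.42 and 7.94 CPM in the IS mice. Both IS mice were above both DMSO mice, IS mouse 1 with 36 reads against 34 in DMSO mouse 1, and the IP mice lay on both sides. The IS difference did not pass the test (log2 fold change 1.63, SE 1.06, unadjusted P = 0.178, adjusted p = 0.9999), and without IS mouse 2 the log2 value was 0.55.

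Mmp19 (chr10:128790910-128800824), a secreted MMP that cleaves basement membrane proteins, measured 21.5 and 30.9 CPM in the DMSO mice, 31.9, 13.9, 29.6 and 15.9 CPM in the IP mice and 17.6 and 61.5 CPM in the IS mice. IS mouse 1 was below and IS mouse 2 above both DMSO mice, so the route had no common direction. The IS difference was within its error (log2 fold change 0.57, SE 0.65, unadjusted P = 0.416, adjusted p = 0.9999), and the log2 value was -0.60 without IS mouse 2 and 1.22 without IS mouse 1.

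Timp2 (chr11:118301069-118355740, - strand), which inhibits MMPs and also takes part in the activation of pro-MMP2 by MT1-MMP, varied little, the highest value being 1.83 times the lowest. It measured 817 and 1146 CPM in the DMSO mice, 1129.8, 1207, 927 and 1201 CPM in the IP mice and 660.3 and 887 CPM in the IS mice. Both IS mice were below all 4 IP mice, and the DMSO mice overlapped both other groups. Neither difference from DMSO passed the test (IP log2 fold change 0.18, SE 0.24, unadjusted P = 0.480, adjusted p = 0.980, and IS log2 fold change -0.37, SE 0.34, unadjusted P = 0.325, adjusted p = 0.9999).

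Timp1 (chrX:20870166-20874735), an inducible secreted inhibitor, was low, at 2.44 and 11.1 CPM in the DMSO mice, 11.8, 4.56, 5.14 and 3.62 CPM in the IP mice and 2.89 and 2.70 CPM in the IS mice. The DMSO mice alone spanned nearly the whole range of the 8 mice. The IS difference did not pass the test (log2 fold change -1.31, SE 0.98, unadjusted P = 0.233, adjusted p = 0.9999), and the log2 value was 0.17 without DMSO mouse 2. Timp3 (chr10:86300372-86349506), a matrix-bound inhibitor, was near the floor, with 3 to 71 reads per mouse. Its 2 higher values, 4.14 and 3.16 CPM, were in IP mouse 4 and IS mouse 1, and the other 6 mice lay between 0.169 and 0.912 CPM. Timp3 differed from DMSO by 2.01-fold in IP (SE 1.18 on the log2 scale, adjusted p = 0.980) and 2.51-fold in IS (SE 1.25 on the log2 scale, adjusted p = 0.9999), neither of which passed. The IP differences of Mmp2 (log2 0.52, SE 0.77), Mmp19 (-0.21, SE 0.39) and Timp1 (-0.13, SE 0.67) were each smaller than their SE.

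**Figure D3:**
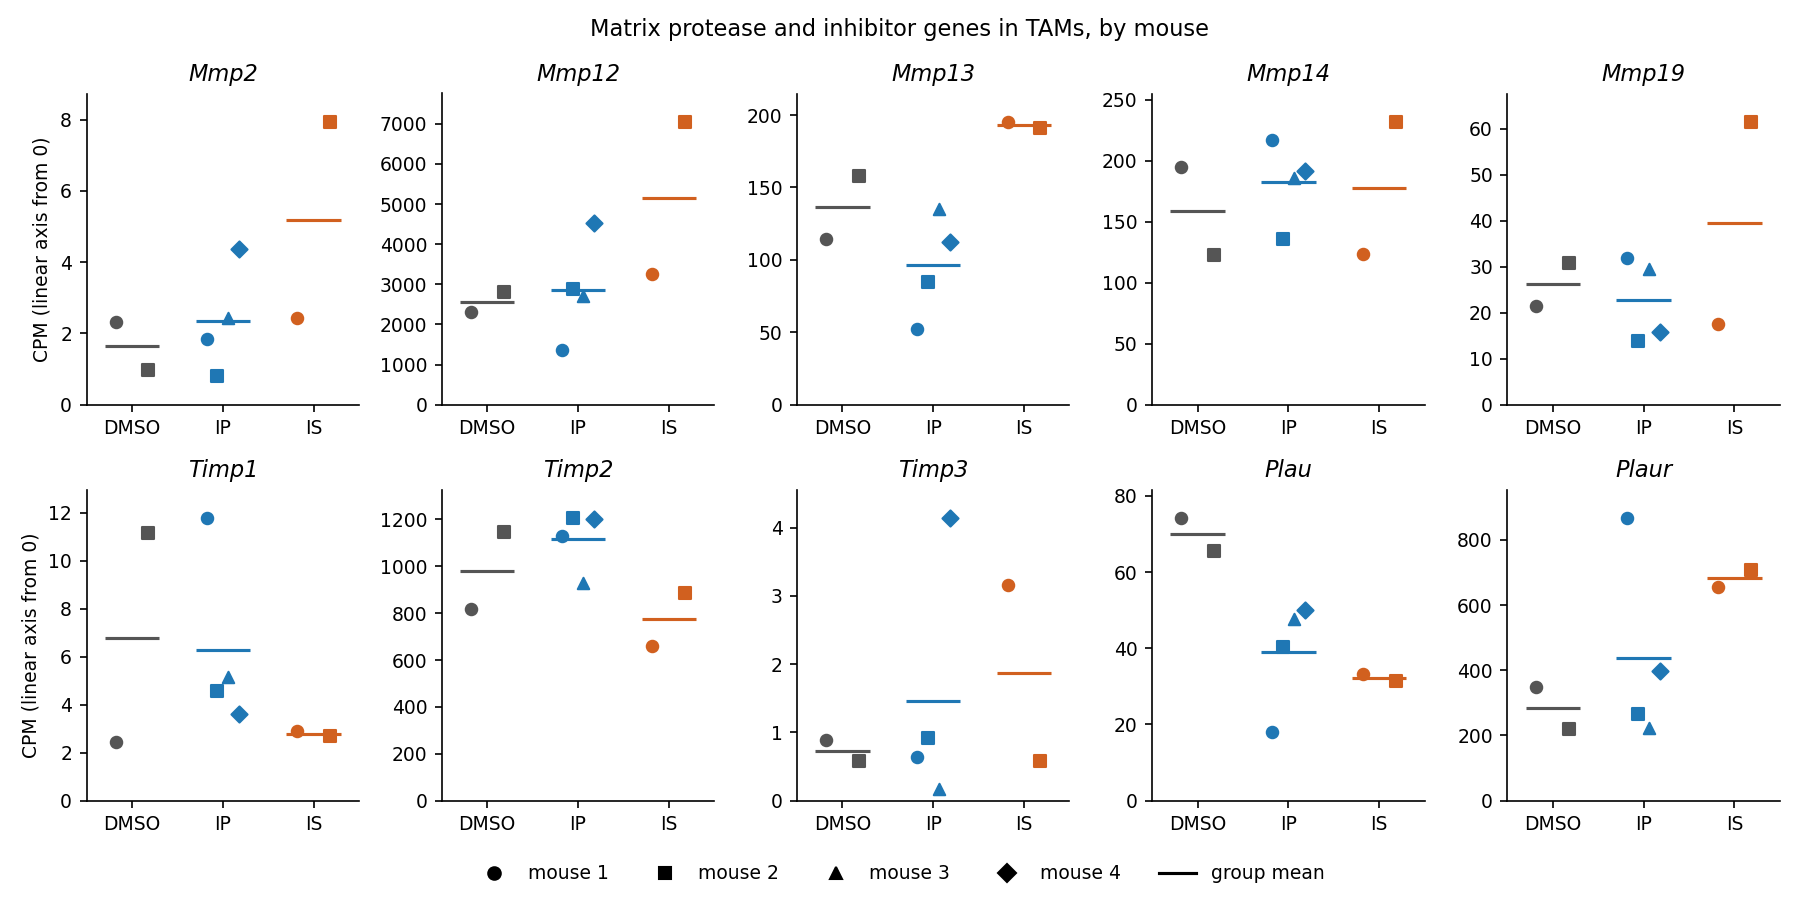
CPM of each of the 10 genes by mouse, 1 panel per gene with its own linear axis from 0, 1 point per mouse with its shape giving the mouse number, and the group mean as a line (DMSO n = 2, IP n = 4, IS n = 2). The IS mice lie above both DMSO mice for Mmp2, Mmp12, Mmp13 and Plaur and below both for Plau.

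Plau and Plaur moved in opposite directions in the IS mice. Plau, urokinase (chr14:20836660-20843385), measured 74.2 and 65.5 CPM in the DMSO mice, 18.04, 40.3, 47.6 and 49.96 CPM in the IP mice and 33.1 and 31.3 CPM in the IS mice. All 6 thiostrepton mice were below both DMSO mice. Over all genes tested, 6.83% lay wholly lower in IP against DMSO and 17.2% in IS against DMSO. The share lower in both was not computed. By IS, Plau fell 2.21-fold, from 69.9 ± 6.15 to 32.2 ± 1.27 CPM (SD, n = 2 each, edgeR log2 fold change -1.14, SE 0.33, unadjusted P = 0.0139, adjusted p = 0.747). By IP the level was 1.79-fold lower, 39.0 ± 14.6 CPM (SD, n = 4), and this did not pass the test (edgeR log2 fold change -0.84, SE 0.38, unadjusted P = 0.0545, adjusted p = 0.980, lower in 4 of 4 mice).

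Plaur, the urokinase receptor (chr7:24462484-24475968), measured 349 and 219 CPM in the DMSO mice, 867, 266, 223 and 396 CPM in the IP mice and 655 and 708 CPM in the IS mice. Both IS mice were above both DMSO mice, and IP mouse 1 was the highest of all 8 while IP mice 2 and 3 lay within the DMSO range. By IS, Plaur rose 2.36-fold, from 284 ± 92.0 to 682 ± 37.3 CPM (SD, n = 2 each, edgeR log2 fold change 1.24, SE 0.35, unadjusted P = 0.0131, adjusted p = 0.747). The IP difference did not pass the test (log2 fold change 0.61, SE 0.53, unadjusted P = 0.277, adjusted p = 0.980), and its log2 value was 0.06 without IP mouse 1. Neutrophil markers were highest in the same 3 mice as Plaur, at 231 and 387 CPM in the IS mice and 161 CPM in IP mouse 1. Their part in the Plaur values was not tested.

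As a description chosen after the values were seen, the ratio of Plaur to Plau reads was 4.70 and 3.34 in the DMSO mice, 48.1, 6.59, 4.68 and 7.93 in the IP mice, and 19.8 and 22.6 in the IS mice. The IS mice and IP mouse 1 lay above the other 5 mice. The ratio of summed MMP to summed TIMP transcripts, both as CPM per kb and chosen the same way, was 3.42 and 2.77 in the DMSO mice, 1.54, 2.68, 3.44 and 4.18 in the IP mice, and 5.66 and 8.82 in the IS mice. It follows Mmp12 over Timp2, which make up most of both sums.

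**Figure D4:**
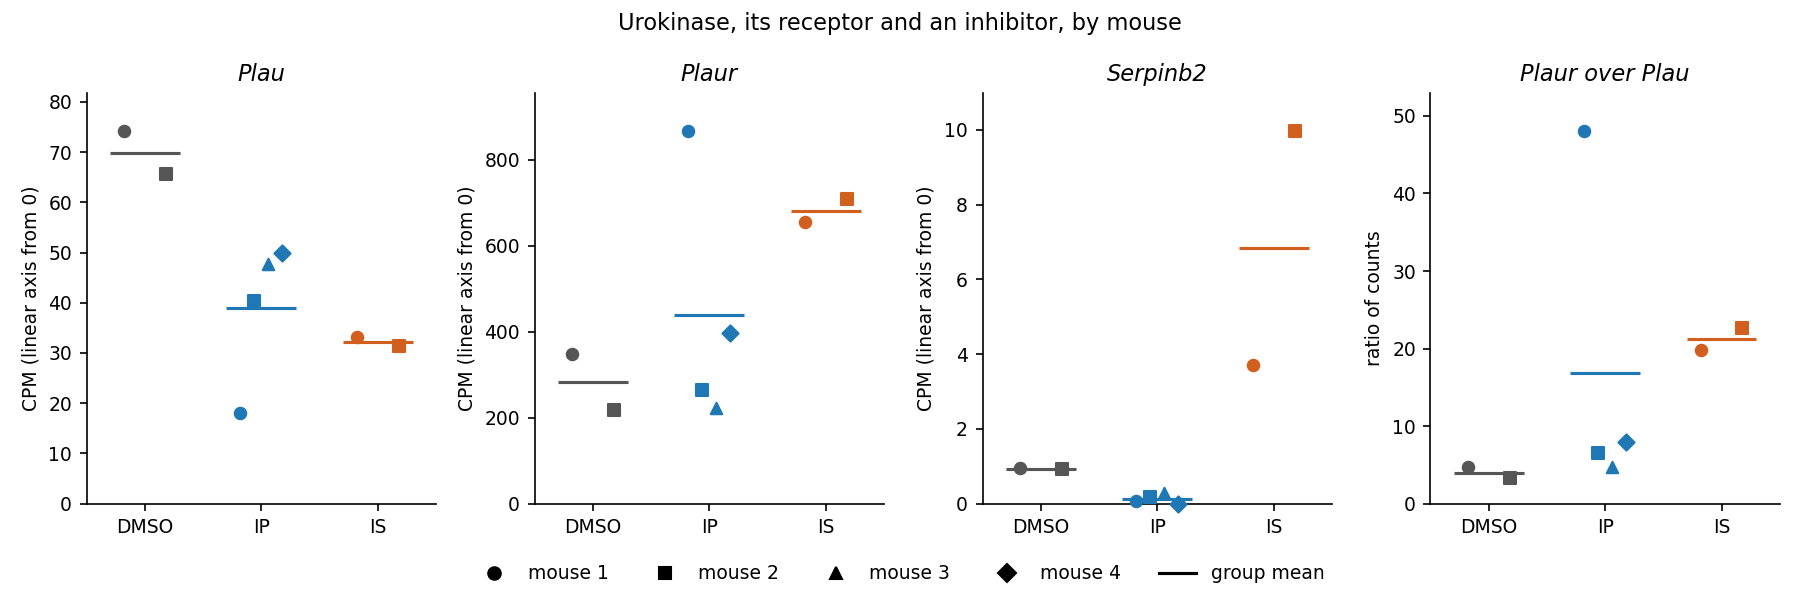
CPM of Plau, Plaur and Serpinb2 and the ratio of Plaur to Plau reads by mouse (linear axes from 0), 1 point per mouse and the group mean as a line (DMSO n = 2, IP n = 4, IS n = 2). Plau is below both DMSO mice in all 6 thiostrepton mice, Plaur and the ratio are highest in IP mouse 1 (867 CPM and 48.1), and Serpinb2 is highest in the IS mice (3.70 and 9.98 CPM).

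**Figure D5:**
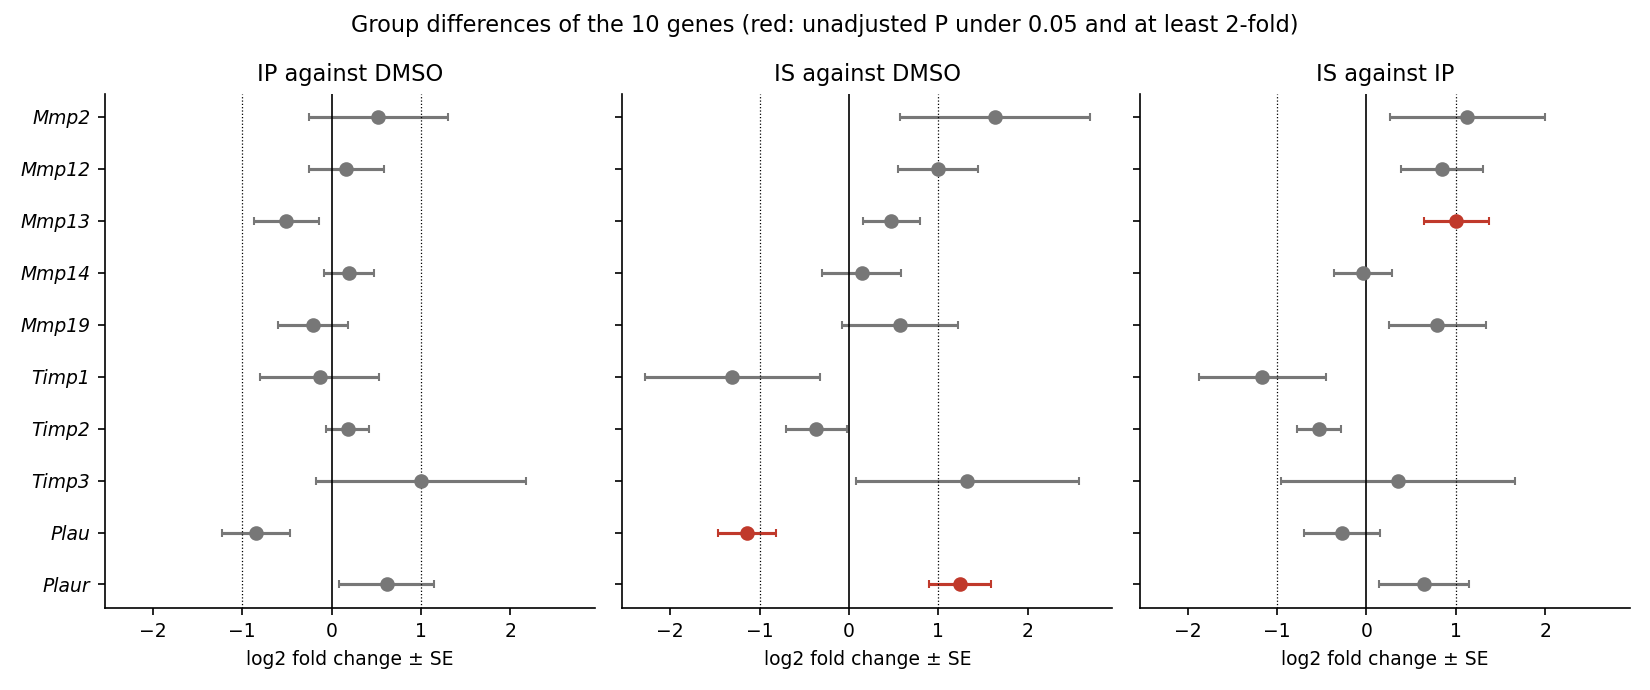
Log2 fold change of the 10 genes in IP against DMSO, IS against DMSO and IS against IP, with bars of 1 SE from edgeR's quasi-likelihood fit, called genes in red and dotted lines at a 2-fold difference. Plaur (1.24) and Plau (-1.14) are called in IS against DMSO, Mmp13 (1.01) in IS against IP, and none in IP against DMSO.

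The routes were compared directly to ask whether injection beside the tumor differed from systemic dosing. Mmp13 was 2.01-fold higher in the IS mice, 193 ± 3.15 (SD, n = 2) against 96.2 ± 35.8 CPM (SD, n = 4), and both IS mice were above all 4 IP mice (edgeR log2 fold change 1.01, SE 0.36, unadjusted P = 0.0228, adjusted p = 0.492). Its fold lies at the threshold, and the call was lost when any of IP mouse 1, IP mouse 2, IS mouse 1 or IS mouse 2 was left out (log2 0.80, 0.95, 0.99 and 1.02) and with library size alone as the scale (0.89). Timp2 (log2 fold change -0.53, SE 0.25, unadjusted P = 0.0649, adjusted p = 0.610) and Timp1 (log2 fold change -1.16, SE 0.71, unadjusted P = 0.140, adjusted p = 0.740) were lower in both IS mice than in all 4 IP mice, and neither passed the test. For Plau the error was larger than the difference (log2 fold change -0.28, SE 0.43, unadjusted P = 0.535, adjusted p = 0.914). Plaur did not pass over all 4 IP mice (log2 fold change 0.64, SE 0.50, unadjusted P = 0.238, adjusted p = 0.813) and was called without IP mouse 1 (log2 fold change 1.21).

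Plau and Plaur calls by IS were also read without each mouse. Without DMSO mouse 2 neither was called (log2 fold change 0.94 for Plaur and -1.23 for Plau), and without DMSO mouse 1 Plaur was (1.61) and Plau was not (-1.05). A fit that leaves 1 mouse in a group takes its spread from the other group alone, so a call there adds no support. Over the fits without 1 mouse the log2 fold change ran from 0.94 to 1.61 for Plaur and from -1.23 to -1.05 for Plau. Without IS mouse 1 it was 2.27 for Mmp2, 1.45 for Mmp12 and 1.22 for Mmp19, and without IS mouse 2 it was 2.09 for Timp3. With all 3 groups in 1 edgeR fit the log2 fold change of Plaur was again 1.24, and its unadjusted P = 0.0621 (adjusted p = 0.685) missed the threshold.

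The other genes of the plasminogen system give the setting of Plau and Plaur. Of 11 listed, 8 were tested, and Serpinb2 and Lrp1 were the genes called. Serpinb2 encodes PAI-2, an inhibitor of urokinase, and had 14 and 16 reads in the DMSO mice, 1, 3, 5 and 0 in the IP mice and 55 and 137 in the IS mice. The 3 groups did not overlap, and the order was IP, DMSO, IS. It fell by 2.75 on the log2 scale by IP (SE 1.08, unadjusted P = 0.0323, adjusted p = 0.980) and rose by 2.84 by IS (SE 0.98, unadjusted P = 0.0288, adjusted p = 0.822), with 5.60 between the routes (SE 1.15, unadjusted P = 0.00109, adjusted p = 0.268) in edgeR. The IP value rests on 9 reads in 4 mice: DMSO was 6.94 times IP (95% exact interval 3.21 to 16.6, counting error only), and the call was lost in DESeq2 and without DMSO mouse 1, DMSO mouse 2 or IP mouse 2 (log2 -2.72, -2.77 and -2.92). Without IP mouse 3 the IP value was -3.40. The IS call was lost without either DMSO mouse (2.86 and 2.82), and the IS value was 1.95 without IS mouse 2 and 3.39 without IS mouse 1. The log2 value between routes ran from 4.72 without IS mouse 2 to 6.23 without IP mouse 3.

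Lrp1, the endocytic receptor that clears urokinase with its inhibitors, measured 161 and 329 CPM in the DMSO mice, 663, 276, 382 and 428 CPM in the IP mice and 156 and 271 CPM in the IS mice. It was lower in the IS mice than in the IP mice (log2 fold change -1.03, SE 0.40, unadjusted P = 0.0318, adjusted p = 0.532), and each IS mouse lay below every IP mouse. The call was lost without IP mouse 1, IP mouse 4 or IS mouse 1 (log2 -0.76, -1.04 and -0.69). Plg, plasminogen itself, which the liver makes, had 0 reads in all 8 mice.

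Among 18 other MMP genes 6 were tested, and 5 had no read in any mouse. Mmp8, neutrophil collagenase, measured 60.5 and 58.5 CPM in the DMSO mice, 24.2, 47.9, 37.6 and 48.2 CPM in the IP mice and 62.8 and 119.8 CPM in the IS mice. All 4 IP mice were below both DMSO mice and both IS mice above them, and it was called between the routes (log2 fold change 1.21, SE 0.38, unadjusted P = 0.0115, adjusted p = 0.402) but against DMSO by neither. Without IS mouse 2 the value between routes was 0.67. Mmp28, epilysin, had 2 and 2 reads in the DMSO mice, 2, 0, 7 and 0 in the IP mice and 17 and 63 in the IS mice. It rose by IS (log2 fold change 4.41, SE 1.35, unadjusted P = 0.0186, adjusted p = 0.747) from 2 reads in each DMSO mouse, below the floor, a read ratio of 22.5 (95% exact interval 8.45 to 84.5, counting error only). This call was lost without either DMSO mouse (log2 4.52 and 4.30), and the log2 value was 3.09 without IS mouse 2 and 5.10 without IS mouse 1. Mmp9, gelatinase B, had 9 to 68 reads per mouse and was not called.

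Mmp13, Mmp12 and Mmp8 belong to a run of 9 protein-coding Mmp genes on chromosome 9, in the order Mmp13, Mmp12, Mmp1b, Mmp3, Mmp10, Mmp8, Mmp27, Mmp20 and Mmp7. Their reads were unevenly spread. Mmp27, named after its values were seen, had 219 to 1055 reads and Mmp8 379 to 1645, while Mmp20 and Mmp7 had 0 and Mmp1b, Mmp3 and Mmp10 had at most 8, 1 and 114. Mmp12 overlaps Mmp1b on the opposite strand, Timp1 overlaps Syn1 (0 to 29 reads), Timp3 overlaps Syn3 (4 to 37 reads) and Mmp19 overlaps Tmem198b (86 to 174 reads), also on opposite strands. These overlaps are of whole gene spans, and whether exons overlap was not checked. Whether counting used strand is not given in the sources used here. Reads could therefore be mixed up only where exons of both genes overlap. Timp2 also overlaps Cep295nl, on its own strand.

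Proteins that bind or release MMPs showed no call, with 0 of 7, 0 of 6 and 0 of 7 tested of 12 listed in IP against DMSO, IS against DMSO and IS against IP. Cd63, which binds TIMP-1 at the cell surface, had the smallest P by IP (log2 fold change 0.58, SE 0.25, unadjusted P = 0.0498, adjusted p = 0.980), under the 2-fold limit. ADAM and ADAMTS proteases gave 0 calls of 12, 10 and 11 tested genes of 18, beside the same shares over all genes. Among 7 other matrix-degrading enzymes, Ctss, a cathepsin active at neutral pH, rose by IS (log2 fold change 1.05, SE 0.36, unadjusted P = 0.0284, adjusted p = 0.822), from 4475 and 2813 to 7004 and 8368 CPM, with 6892, 3865, 6069.9 and 5205 CPM in the IP mice, and lost its call without DMSO mouse 2 or IS mouse 2 (log2 0.76 and 0.92). Hyal1, a hyaluronidase, was lower by IS than by IP (log2 fold change -1.36, SE 0.33, unadjusted P = 0.00294, adjusted p = 0.288). Of 19 matrix components 8, 6 and 7 were tested, and Col4a1, a basement membrane collagen chain, rose by IP (2.86, SE 1.18, unadjusted P = 0.0399, adjusted p = 0.980) and by IS (3.32, SE 1.27, unadjusted P = 0.0421, adjusted p = 0.901) from 2 and 3 reads in the DMSO mice to 48, 8, 12 and 9 in the IP mice and 13 and 33 in the IS mice. The read ratios were 7.39 (95% exact interval 3.03 to 23.4) and 10.3 (4.13 to 33.4), intervals that cover counting error only and not the spread between mice. Leaving out either DMSO mouse, or IP mouse 1 for IP (log2 1.81), lost the call, and the IS value was 2.41 without IS mouse 2. Adjusted p was above 0.05 for every gene of these lists.

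The values of other cell types beside these results were as follows. In IS against DMSO 5 of 8 tested neutrophil markers and 3 of 8 melanoma markers were called higher, and in IS against IP 5 of 9 neutrophil markers and 0 of 8 melanoma markers were, although the sort left out cells with Gr-1, an antigen of neutrophils. Of the T and NK cell markers, 1 of 6 tested was called higher in IS against DMSO (Gzma, granzyme A) and 3 of 7 in IS against IP (Gzma, Nkg7 and Cd3g). Over all genes 2.29% were called higher in IS against DMSO and 2.41% in IS against IP. IS mouse 2 held the highest value of 4 of the 10 genes (Mmp2, Mmp12, Mmp14 and Mmp19), and of 21.8% of the 11355 genes averaging 1 CPM or more. In this mouse neutrophil markers were highest at 387 CPM, and melanoma markers, at 701 CPM, were near the DMSO mice. The macrophage markers Adgre1 and Csf1r were also highest in it, at 1020 and 1128 CPM, against 361 and 353 CPM in IS mouse 1. In IS mouse 1 melanoma markers were highest, at 2994 CPM, with Plau and Plaur at nearly the same levels as in IS mouse 2. The part of these cell types in the values of Plaur, Mmp8, Mmp12 and Serpinb2 was not tested. Fibroblast markers, the usual sign of stromal cells that make Mmp2, Timp1 and Timp3, were tested for 0 of 10 genes because none had enough reads.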

How the data were processed

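TAM RNA of 8 mice bearing B16F10 tumors was sequenced, and the groups (DMSO, IP and IS) follow the sample labels. The counts are as deposited by the authors: whole numbers per gene, not normalized, from reads aligned to mm10 with bowtie2 2.2.3 and counted with RSEM 1.2.15 per the methods, while the submitters' processing notes name TopHat2, edgeR and mm10. The gene annotation and strand setting are not given in the sources used here. Columns not used numbered 0.

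In R 4.3.3 with edgeR 4.0.16, genes were kept by filterByExpr (minimum count 10, minimum total 15), scaled by TMM, and fitted for each pair of groups alone with a quasi-likelihood test (two-sided). Benjamini-Hochberg adjustment ran over all genes tested, and a gene was called at an unadjusted P under 0.05 with at least a 2-fold change. The procedure was tested on simulated data. P values measure the spread between mice. The members and lists were chosen with earlier results of these data known. All 10 genes are named, and of each other list the 3 with the smallest P per comparison, of which the text takes some.

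Alternatives were no gene filter, 1 CPM in at least 2 samples, RLE size factors, library size only, the likelihood ratio test, DESeq2 1.42.0, all 3 groups in 1 fit, a block for mice with the same number and leaving out each mouse. The block left out IP mice 3 and 4, whose numbers occur in no other group. Positions and transcript lengths are from GENCODE vM21 (GRCm38, the assembly of mm10).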

Additional observations from a re-analysis of the deposited data

Results flagged for a closer look

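In the IP mice, the highest of the 4 values lay far from the others for Col4a1 and for the ratio of Plaur to Plau reads, both in IP mouse 1. The gap to the next mouse was 0.926 of the range for Col4a1 and 0.925 for the ratio, above the 95% critical value of Dixon's test for 4 values. Of 21 values checked 2 stood out in this way, where chance marks about 1 in 20, and the ratio was chosen after the values were seen.

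The routes differed in the direct edgeR comparison for Mmp13 (IS over IP, log2 fold change 1.01), Mmp8 (1.21), Mmp28 (4.36), Serpinb2 (5.60), Lrp1 (-1.03) and Hyal1 (-1.36). Each passed at an unadjusted P under 0.05 and with at least a 2-fold change, and each missed the threshold after adjustment over all 12206 genes. The value of Mmp28 was 3.05 without IS mouse 2, which lost the call, 5.04 without IS mouse 1 and 5.84 without IP mouse 3. Both IS mice lay above all 4 IP mice for Mmp13, Mmp8, Mmp28 and Serpinb2, and below all of them for Lrp1 and Hyal1. Over all genes 8.05% lay above and 10.5% below in this way. These genes were picked by their calls in the same comparison, so the separation adds no support.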

How the results depend on the processing

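With 2 mice in 2 of the 3 groups, few calls held under every alternative. In IS against DMSO the 2 called genes became 1 (Plau) with all 3 groups in 1 fit and 0 to 5 when 1 mouse was left out: 0 without DMSO mouse 2 and 5 without IS mouse 1. In IS against IP the 1 called gene became 0 with library size only and 0 to 2 without 1 mouse. In IP against DMSO 0 were called without any 1 mouse. In DESeq2 3 genes were called in IS against DMSO, Mmp12 with Plau and Plaur.

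Mice with the same number were not shown to pair: the correlations of their deviations lay between -0.144 and 0.0743. A replicate block keeps only mice whose number occurs in both groups, so it left IP mice 3 and 4 out of both comparisons with IP. With it, 2 genes were called in IP against DMSO (Mmp13 and Plau, both lower). In IS against DMSO 2 were called, and in IS against IP 2 (Mmp12 and Mmp13, higher). In IP against DMSO the log2 fold change turned to -0.32 for Mmp2, -0.37 for Mmp12 and 0.45 for Timp1. In IS against IP that of Plau turned to 0.24. Calls over all genes moved from 243 to 323, 591 to 429 and 860 to 396. In the comparisons with IP, the block and the loss of 2 mice cannot be told apart. Crossing the numbers in IS against DMSO, an alternative chosen after seeing the data, gave 2 calls among the 10 genes and 475 over all genes. The causes were not tested.

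Library size alone gave Mmp14 -0.013 in IS against DMSO, and there moved all calls from 268 higher and 323 lower to 196 and 429. All 3 groups in 1 fit gave 159 calls over all genes in IP against DMSO. Without 1 mouse, calls over all genes ranged from 115 to 373 (IP against DMSO), 114 to 3098 (IS against DMSO) and 639 to 1981 (IS against IP).

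Directions that turned without 1 mouse had these ranges of log2 fold change. In IP against DMSO they were -0.14 to 0.40 for Mmp12, -0.10 to 0.58 for Mmp14, -0.44 to 0.084 for Mmp19, -0.83 to 1.36 for Timp1, -0.037 to 0.45 for Timp2, -0.35 to 1.38 for Timp3 and -0.12 to 1.03 for Hyal1. In IS against DMSO they were -0.38 to 0.54 for Mmp14, -0.60 to 1.22 for Mmp19, -2.02 to 0.17 for Timp1, -0.32 to 2.09 for Timp3 and -0.68 to 0.39 for Lrp1. In IS against IP they were -0.56 to 0.34 for Mmp14, -0.37 to 1.43 for Mmp19, -1.32 to 1.70 for Timp3 and -0.43 to 1.53 for Col4a1. Plau stayed lower (-1.23 to -1.05) and Plaur higher (0.94 to 1.61) in IS against DMSO without any 1 mouse. Their groups did not overlap, as for 34.3% of all genes tested, so leaving out a mouse could hardly turn their direction.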
